A study of Rattus norvegicus with 19 samples.

Results

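Collagens are the main structural proteins of the extracellular matrix. Each is a trimer of alpha chains, made in the endoplasmic reticulum with the help of prolyl and lysyl hydroxylases, secreted as procollagen, trimmed, and crosslinked by lysyl oxidases. The fibrillar collagens form the fibres of connective tissue, type IV collagen forms the sheet of basement membranes, and other types decorate fibrils, build short networks or sit in the plasma membrane. In the spinal cord, collagen is found mainly in the meninges and around blood vessels, and fibroblasts, mural cells and endothelial cells are its known sources there.

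The collagen genes described here are all genes of the expression table whose symbol consists of Col, a number, the letter a and a number. There were 27 of them among 15597 genes. By type they comprised 10 fibrillar, 6 basement membrane, 4 FACIT (fibril-associated), 3 transmembrane and 2 beaded filament genes, 1 short-chain network gene and 1 gene of no such class. Chains with no row in the table, such as Col4a2, Col6a1 and Col12a1, were not analysed here.

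The 19 libraries are RNA sequencing libraries of primary ventral spinal cord cultures from wild-type Sprague-Dawley rats at embryonic day 14, a mixture of neurons, glia and other cells. Cultures received long-chain polyphosphate (polyPL, a linear polymer of phosphate) at 100 μM (polyP, n = 5), medium conditioned by mouse astrocytes transgenic for human SOD1 with the G93A change that causes familial amyotrophic lateral sclerosis (mutSOD1-ACM, n = 5), the same kind of medium from mouse astrocytes with unmutated human SOD1 (wtSOD1-ACM, n = 4), or no addition (control, n = 5). Exposure lasted 90 min. By its title the series looks for a shared transcript response to polyP and mutSOD1-ACM. The astrocytes came from newborn mouse spinal cord, and no label names the promoter of the SOD1 transgenes. The labels give the culture age as 7 days in one field and 4 days in another. All cultures were kept in medium with horse serum and chick leg extract, and the control cultures received no conditioned medium. The labels speak of 4 to 5 independent cultures per condition, with no identifier tying a library to a dissection, so the p-values measure the spread between these libraries.

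Levels are given as FPKM (fragments scaled by transcript length and by library size). A gene was tested when it reached 1 FPKM in at least 4 libraries, and called at an adjusted p under 0.05 from limma over all 11887 genes tested. Fold changes come from log2(FPKM + 1), so those of weakly expressed genes are understated. Of the 27 collagen genes 22 passed the filter. The remaining 5, Col4a3, Col4a4, Col6a4, Col9a1 and Col17a1, had median levels between 0.050 and 0.800 FPKM and were not tested.

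The libraries differed in ways the treatments do not account for. Clustering without the collagen genes gave 3 classes of libraries, seen only in the values and not stated in the labels. Class A held polyP replicates 1 and 2, mutSOD1-ACM replicates 1 and 2 and control replicate 1, with no wtSOD1-ACM library. Class B held 6 libraries, with 1 polyP, 1 mutSOD1-ACM, 2 wtSOD1-ACM and 2 control libraries. Class C held 8 libraries, 2 of each group. Class C was low in the myelin gene Mbp, at 6.54 to 9.62 FPKM, against 169 to 372 FPKM in classes A and B. Sequencing depth, recovered only in relative terms, spanned 0.762 to 1.35 times that of the median library, and summed FPKM ran from 483794 to 515541 in polyP libraries and from 446366 to 479964 in control libraries.

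Ranked by median FPKM over the 19 libraries, Col1a1 came first with 298 FPKM, followed by Col4a1 with 297, Col3a1 with 241, Col1a2 with 221 and Col5a2 with 120 FPKM. These are chains of type I, IV, III, I and V collagen. Col1a1 and Col4a1 did not differ in median beyond the spread over libraries, which ran from 181 to 474 FPKM for Col1a1 and from 153 to 454 FPKM for Col4a1. Col5a1 followed with 92.3 FPKM, Col18a1 with 75.4, Col8a1 with 71.5 and Col5a3 with 52.8 FPKM. All other collagen genes had medians of 42.0 FPKM or less. The most variable of the tested genes was Col7a1, whose highest library was 6.63 times its lowest, and the least variable was Col6a2, with a ratio of 1.77.

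The first comparison asked what polyP did relative to untreated cultures. Collagen mRNAs were lower in polyP cultures, across fibrillar, basement membrane and fibril-associated types. Of the 22 tested genes 13 fell and 0 rose (limma adjusted p under 0.05), against 8.77% of all tested genes called lower and 23.0% called higher. Scaling every library to the same summed FPKM turned the balance over all genes, to 14.0% lower and 11.8% higher, and median-of-ratios scaling gave 12.4% lower and 16.1% higher. Under either scaling 14 collagen genes were lower and 0 higher. The median log2 fold change of the 22 genes was -0.61, and that of all tested genes was 0.04. All FPKM of the 27 genes summed to 1284, 1442, 1356, 970 and 1057 in the 5 polyP libraries and to 1809, 2069, 1704, 1774 and 1695 in the 5 control libraries. The collagen share of all summed FPKM was 0.190% to 0.286% in polyP libraries and 0.353% to 0.463% in control libraries, with no overlap. In bulk RNA, fewer cells of a type and less RNA per cell cannot be told apart.

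**Figure D1:**
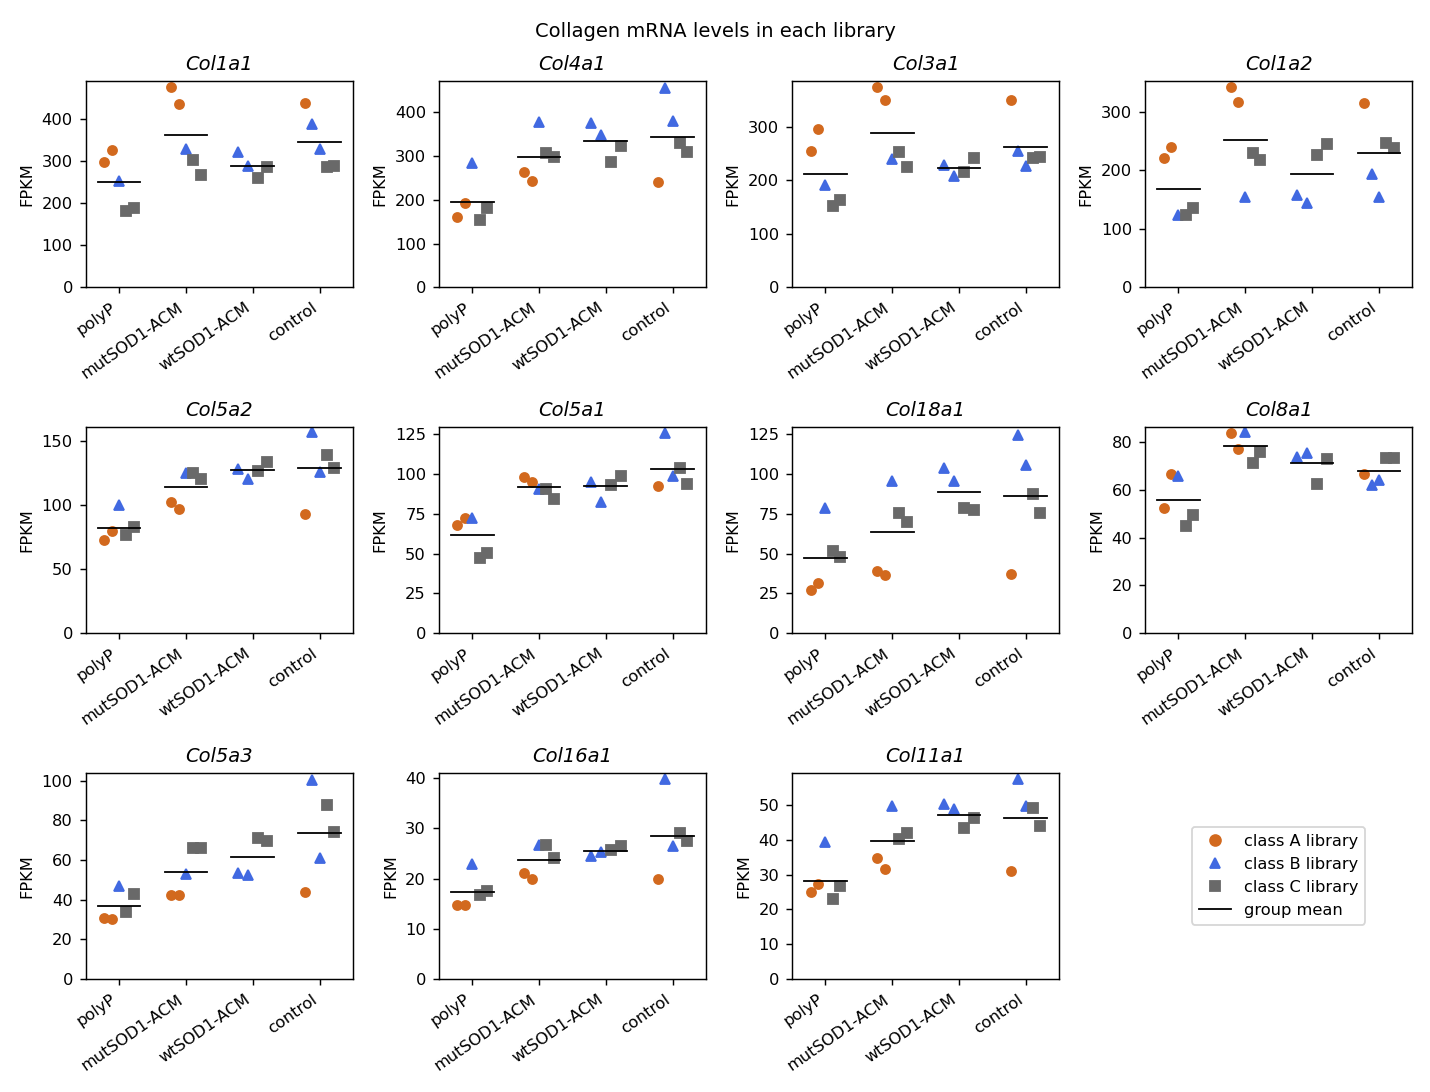
FPKM (vertical axes, linear from 0) of the 11 collagen genes described library by library, with polyP, mutSOD1-ACM, wtSOD1-ACM and control libraries from left to right and bars at the group means. Symbols mark the 3 classes of libraries; for Col5a1 all 5 polyP points (47.0 to 72.5 FPKM) lie below all 5 control points (92.3 to 126 FPKM), and for Col1a2 and Col3a1 the class A libraries stand highest in polyP, mutSOD1-ACM and control cultures.

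The type V chains, minor fibrillar collagens that set the diameter of type I fibrils, all fell. Col5a1 (gene ID 85490) stood at 67.8, 72.1, 72.5, 47.0 and 50.7 FPKM in polyP cultures 1 to 5, against 92.3, 126, 98.7, 104 and 93.8 FPKM in control cultures 1 to 5. It was the only tested collagen gene whose polyP values all lay below the control values, 1 of 22 genes against 4.31% of all tested genes. Its mean was 62.0 ± 12.2 FPKM in polyP and 103 ± 13.5 FPKM in control cultures (SD, n = 5 each), a log2 fold change of -0.74 ± 0.11 (SE; limma adjusted p = 0.000215). Col5a2 (85250) stood at 72.3, 79.5, 99.5, 76.4 and 82.9 FPKM in polyP cultures, against 92.8, 157, 126, 139 and 129 FPKM in control cultures. Control replicate 1 lay within the polyP range and the other 4 controls above it. The log2 fold change was -0.63 ± 0.12 (limma adjusted p = 0.000647). Col5a3 (60379), the third type V chain, had 30.9, 30.5, 46.8, 33.9 and 42.8 FPKM in polyP cultures and 44.1, 101, 61.0, 88.0 and 74.1 FPKM in control cultures. Only control replicate 1 lay under the highest polyP value. This was the largest log2 fold change of the called collagen genes, -0.94 ± 0.20 (limma adjusted p = 0.0017), with means of 37.0 ± 7.37 FPKM in polyP and 73.6 ± 22.2 FPKM in control cultures.

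Col4a1 (290905), a chain of the type IV network of basement membranes, had 161, 192, 282, 153 and 180 FPKM in polyP cultures and 239, 454, 377, 329 and 308 FPKM in control cultures. PolyP replicate 3 and control replicate 1 crossed over, and all other polyP values lay below all control values. Means were 194 ± 51.7 FPKM in polyP and 342 ± 80.2 FPKM in control cultures (SD, n = 5 each), and the log2 fold change was -0.82 ± 0.17 (limma adjusted p = 0.00161). Col18a1 (85251), whose C-terminal fragment is endostatin, had 27.0, 31.4, 78.7, 51.8 and 47.6 FPKM in polyP cultures and 37.0, 125, 106, 87.5 and 75.4 FPKM in control cultures. Its spread within groups was wide, with class A libraries lowest in both groups, and the log2 fold change of -0.84 ± 0.33 did not pass (limma adjusted p = 0.0603), though it did with equal summed FPKM (0.0488) and with median-of-ratios scaling (0.0456). Col18a1 was called in 2 of the 19 fits that left out 1 library (highest limma adjusted p = 0.158). Col15a1, a collagen of the outer basement membrane zone, fell by 0.69 on the log2 scale (limma adjusted p = 0.0228). It averaged 3.42 ± 1.11 FPKM in polyP and 6.34 ± 2.58 FPKM in control cultures, and it lost the call in 4 of the 19 fits that left out 1 library, those without polyP replicates 1 and 2 and control replicates 2 and 4 (highest adjusted p = 0.0728). Col7a1, the anchoring fibril collagen, was at 2.41 ± 1.46 FPKM in polyP and 4.27 ± 2.19 FPKM in control cultures and was not called (limma adjusted p = 0.12).

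Of the most abundant fibrillar chains, those of type I and type III collagen, 1 of 3 was called. Col1a1 (29393) had 298, 326, 251, 181 and 189 FPKM in polyP cultures and 437, 388, 329, 286 and 287 FPKM in control cultures. The groups overlapped, and the log2 fold change of -0.49 ± 0.18 was called by a small margin (limma adjusted p = 0.0473). The call held in 7 of the 19 fits that each left out 1 library, and the adjusted p was highest, 0.127, without polyP replicate 4. Col1a2 (84352), the partner chain of type I collagen, had 221, 241, 123, 124 and 135 FPKM in polyP cultures and 315, 194, 154, 246 and 239 FPKM in control cultures (log2 fold change -0.46 ± 0.25, limma adjusted p = 0.17). Col3a1 (84032), the type III chain of reticular fibres, had 254, 296, 192, 153 and 164 FPKM in polyP cultures and 350, 254, 226, 242 and 244 FPKM in control cultures (log2 fold change -0.34 ± 0.18, limma adjusted p = 0.158). For both genes the polyP class A libraries, replicates 1 and 2, reached the range of the control libraries. Col3a1 and the called Col5a2 are neighbouring protein-coding genes in GRCr8.

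Col11a1 (25654), a type XI chain related to type V, had 24.9, 27.3, 39.4, 22.9 and 26.7 FPKM in polyP cultures and 31.0, 57.5, 49.6, 49.2 and 43.9 FPKM in control cultures, with polyP replicate 3 and control replicate 1 crossing over. It fell by 0.69 ± 0.16 on the log2 scale (limma adjusted p = 0.00276), and its partner chain Col11a2 fell by 0.73 (adjusted p = 0.0118). Col27a1, a fibrillar collagen best known from cartilage, fell by 0.84 on the log2 scale (limma adjusted p = 0.036). It averaged 6.18 ± 2.66 FPKM in polyP and 11.6 ± 3.73 FPKM in control cultures and lost the call in 6 of the 19 fits that left out 1 library, where the highest adjusted p was 0.101, without polyP replicate 1. Col2a1, the main collagen of cartilage, was low at 4.70 ± 1.41 FPKM in polyP and 8.14 ± 3.97 FPKM in control cultures and was not called (limma adjusted p = 0.288). In all, 7 of the 10 fibrillar genes and 2 of the 4 tested basement membrane genes fell.

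Among the fibril-associated collagens, Col16a1 (366474) had 14.7, 14.8, 22.9, 16.6 and 17.4 FPKM in polyP cultures and 20.0, 39.8, 26.5, 29.0 and 27.4 FPKM in control cultures. Again only polyP replicate 3 and control replicate 1 crossed over, and the log2 fold change was -0.68 ± 0.14 (limma adjusted p = 0.00171). Col14a1, at 1.21 ± 0.320 FPKM in polyP and 1.81 ± 0.186 FPKM in control cultures, fell by 0.36 on the log2 scale (limma adjusted p = 0.0119). Col9a2 was not called (log2 fold change -0.33, adjusted p = 0.143), so 2 of 3 tested members of this class fell. Col6a2, a chain of the beaded filaments of type VI collagen, averaged 27.6 ± 2.59 FPKM in polyP and 37.6 ± 3.93 FPKM in control cultures and fell by 0.43 (limma adjusted p = 0.00512).

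Col8a1 (304021), a short-chain network collagen of vessel walls, had 52.6, 66.6, 65.8, 44.8 and 49.5 FPKM in polyP cultures and 66.8, 62.0, 64.0, 73.4 and 73.2 FPKM in control cultures. The polyP replicates of class C were the lowest, and replicates 2 and 3 lay within the control range. Its log2 fold change was -0.29 ± 0.10 (limma adjusted p = 0.03), and the call was lost in 5 of the 19 fits that left out 1 library, those without polyP replicates 1, 4 and 5 and control replicates 4 and 5 (highest adjusted p = 0.0891). Neither of the tested transmembrane collagens was called. Col23a1 stood at 10.7 ± 2.84 FPKM in polyP and 10.4 ± 1.62 FPKM in control cultures (log2 fold change 0.01 ± 0.15), and Col13a1 at 0.980 ± 0.675 FPKM in polyP and 1.35 ± 0.659 FPKM in control cultures. Col26a1, a collagen of no such class, had a log2 fold change of 0.04 ± 0.13. Col23a1 and Col26a1 were the only tested collagen genes with a positive estimate, and both estimates were negative with equal summed FPKM or median-of-ratios scaling.

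**Figure D2:**
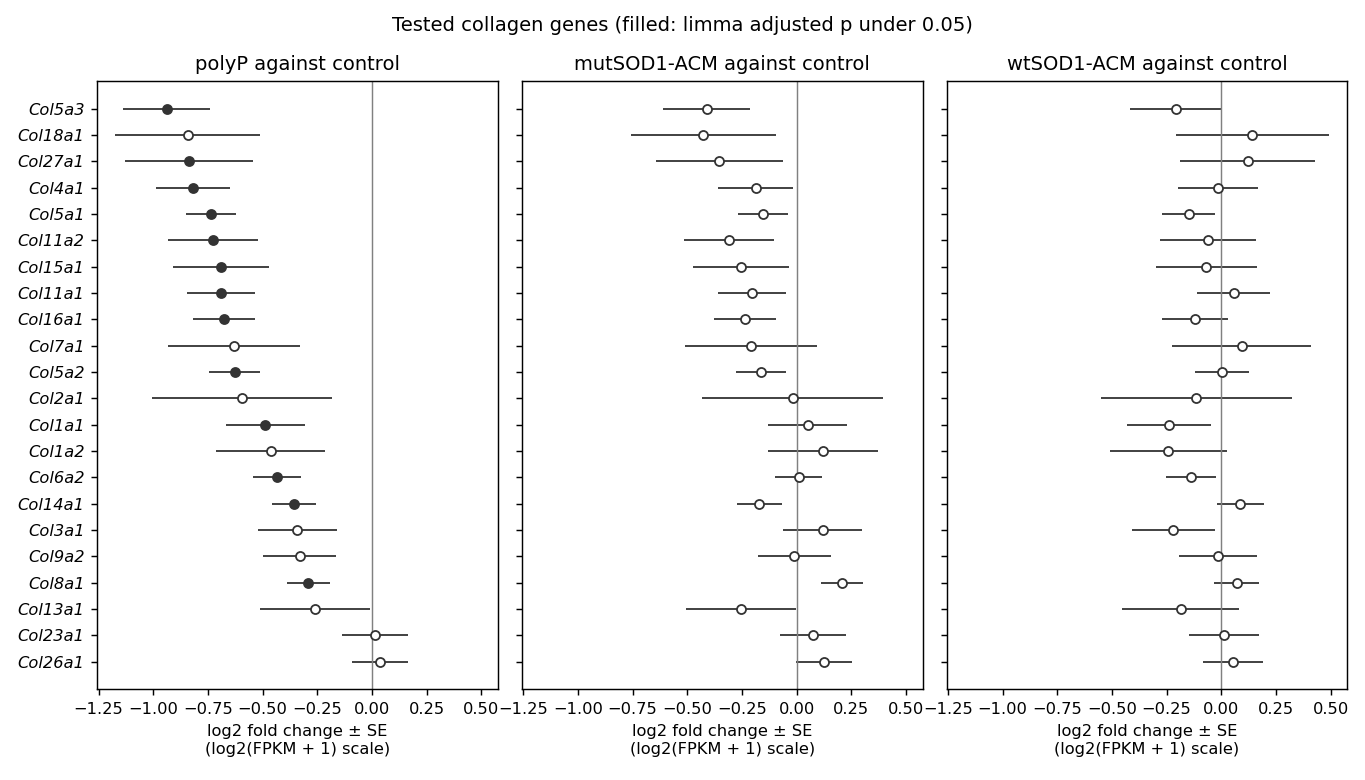
Log2 fold changes with SE (horizontal axes, log2(FPKM + 1) scale) of the 22 tested collagen genes for polyP, mutSOD1-ACM and wtSOD1-ACM, each against control, in the order of the polyP panel. Filled points passed limma's adjusted p threshold of 0.05: 13 genes in the polyP panel, all negative, and 0 in either conditioned medium panel. The 3 panels share the control libraries.

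The differences were also read within the classes of libraries. Against control, all 22 tested genes had lower mean log2 values in polyP in class A (2 polyP and 1 control library, median difference -0.37), 18 of 22 in class B (1 and 2 libraries, -0.45) and 21 of 22 in class C (2 and 2 libraries, -0.64). In 16 of the 22 genes every polyP library lay below every control library of its own class, against 15.8% of all tested genes. These 16 included Col1a1, Col1a2, Col3a1 and Col18a1. The others were Col7a1, Col8a1, Col9a2, Col13a1, Col23a1 and Col26a1. With the class as a term in the limma fit, an alternative added after the data were examined, 19 of 22 collagen genes were lower and 0 higher, against 21.1% of all tested genes lower. Col1a2 then had a log2 fold change of -0.67 (limma adjusted p = 8.78e-06), Col3a1 one of -0.46 (adjusted p = 2.34e-05) and Col18a1 one of -0.56 (adjusted p = 8.39e-06). The classes were drawn from the values of these same libraries and entered the fit as if known. These p-values therefore do not carry the uncertainty of that grouping and may be too small. Col13a1, Col23a1 and Col26a1 were the 3 genes not called in that fit. In fits without a class term, classes A and B together (3 libraries a group) gave 2 calls, Col5a1 and Col5a3, and class C alone (2 libraries a group) gave 17, all lower. Over all genes the calls moved the same way. Classes A and B together gave 651 genes lower and class C alone 2144, against 1043 in the fit of all libraries.

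Stretches upstream of 4 collagen genes follow as examples. Col5a1, Col4a1 and Col5a3 fell together, and Col1a2 is the most abundant member with an entry that was not called. Col5a2, called at a smaller adjusted p than Col4a1 and Col5a3, has an entry that is not shown. The sequences are from RefSeq, assembly GRCr8, which held a promoter entry for 22 of the 27 genes and none for Col1a1, Col2a1, Col3a1, Col6a2 and Col14a1. They show the 250 bases before the annotated start, 5′ to 3′ on the gene's strand. Capitals mark the CCAAT box, the GGGCGG box and the TATAAA box on either strand. The Col5a1 stretch lies at chr3:31606630-31606879 on the plus strand, that of Col4a1 at chr16:84885347-84885596 on the plus strand, that of Col5a3 at chr8:27625949-27626198 on the minus strand and that of Col1a2 at chr4:33518307-33518556 on the plus strand.
Col5a1: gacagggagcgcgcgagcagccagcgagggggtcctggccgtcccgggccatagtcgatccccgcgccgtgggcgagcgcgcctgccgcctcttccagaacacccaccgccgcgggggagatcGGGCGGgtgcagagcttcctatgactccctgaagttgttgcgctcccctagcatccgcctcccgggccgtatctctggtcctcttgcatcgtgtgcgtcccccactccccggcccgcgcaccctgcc
Col4a1: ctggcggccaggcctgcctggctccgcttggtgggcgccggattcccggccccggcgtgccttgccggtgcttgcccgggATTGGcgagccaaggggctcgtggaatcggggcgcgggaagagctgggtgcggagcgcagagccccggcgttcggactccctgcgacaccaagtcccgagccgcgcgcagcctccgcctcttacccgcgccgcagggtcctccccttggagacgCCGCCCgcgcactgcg
Col5a3: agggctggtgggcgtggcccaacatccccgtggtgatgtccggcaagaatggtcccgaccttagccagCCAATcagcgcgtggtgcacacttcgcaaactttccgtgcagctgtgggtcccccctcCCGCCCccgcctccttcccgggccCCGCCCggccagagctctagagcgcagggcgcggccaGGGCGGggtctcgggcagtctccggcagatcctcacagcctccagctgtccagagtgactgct
Col1a2: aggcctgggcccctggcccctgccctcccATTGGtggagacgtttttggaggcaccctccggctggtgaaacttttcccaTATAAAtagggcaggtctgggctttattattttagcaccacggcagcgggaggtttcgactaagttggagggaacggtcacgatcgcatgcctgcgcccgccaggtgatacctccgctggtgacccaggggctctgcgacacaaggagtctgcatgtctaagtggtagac
The stretches of Col5a1, Col4a1 and Col5a3 were 71.6%, 75.2% and 68.8% G and C, and that of Col1a2 was 58.4%. These examples do not stand for all called and uncalled genes. The stretch of the called Col5a2 was 44.8% G and C and held none of these boxes. That of the uncalled Col23a1 was 73.2%. The GGGCGG box, the motif bound by Sp1-type factors, was present in 12 of the 22 collagen stretches and in 30.5% of the 33469 stretches of the same length in the table. Of the 10 stretches that belong to collagen genes called lower, 8 held it, and those of Col5a2 and Col15a1 did not. The uncalled Col7a1, Col18a1 and Col23a1 and the untested Col4a3 held it too. The collagen stretches were also richer in G and C, with a median of 61.2% against 51.2% over all stretches. CCAAT was present in 6 of the 22, against 34.0% of all, and TATAAA in 3 of the 22, against 12.9% of all. These matches describe the letters only.

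The genes that make and handle collagen were counted next, from lists written with earlier results of these data known. Of 28 tested genes of collagen synthesis and maturation 16 fell and 0 rose in polyP cultures, against the 8.77% of all tested genes called lower and 23.0% called higher, with a median log2 fold change of -0.36. P4ha1, a catalytic subunit of prolyl 4-hydroxylase, had 40.6, 45.1, 45.1, 35.4 and 39.2 FPKM in polyP cultures and 52.8, 64.2, 51.0, 59.3 and 54.6 FPKM in control cultures, with no overlap. Its log2 fold change was -0.45 ± 0.07 (limma adjusted p = 0.000221). Loxl2, a lysyl oxidase that crosslinks type IV collagen, fell by 0.65 (adjusted p = 0.000252), and Plod3, a lysyl hydroxylase and glycosyltransferase, fell by 0.71 (adjusted p = 0.00136, both limma).

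The 12 tested genes of collagen breakdown and its inhibitors had a list median of -0.23, and are too few for a share to be read closely. Of these 2 fell and 0 rose, against 8.77% of all tested genes called lower. They were Mrc2, the endocytic collagen receptor, with 19.1 ± 1.79 FPKM in polyP and 29.9 ± 4.14 FPKM in control cultures (log2 fold change -0.62, limma adjusted p = 0.000258), and Mmp2, gelatinase A, with 48.1 ± 5.01 FPKM in polyP and 72.0 ± 10.4 FPKM in control cultures (log2 fold change -0.57, adjusted p = 0.00055). Among the receptors 5 of 6 tested genes fell, against the same 8.77%. Itgb1, the beta 1 integrin subunit shared by the collagen-binding integrins, had 294 ± 30.6 FPKM in polyP and 449 ± 70.0 FPKM in control cultures (log2 fold change -0.60, limma adjusted p = 0.000367). Itga11, the alpha subunit of a receptor for fibrillar collagen, fell by 0.51, and Ddr1, a collagen-binding receptor tyrosine kinase, fell by 0.40 (limma adjusted p = 0.0012 and 0.00181).

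Among the partners of collagen in basement membranes 7 of 9 tested genes fell and 0 rose, again against 8.77% of all tested genes called lower. Lamc1, the common gamma chain of laminins, had 77.0, 82.2, 87.6, 60.4 and 67.7 FPKM in polyP cultures, against 100, 182, 127, 142 and 124 FPKM in control cultures (log2 fold change -0.83, limma adjusted p = 0.000204). Lamb2, another laminin chain, fell by 0.74, and the heparan sulfate proteoglycan gene Agrn fell by 0.77 (limma adjusted p = 0.00185 and 0.00286). In the 3 comparisons among mutSOD1-ACM, wtSOD1-ACM and control cultures, 0 genes of these 4 lists were called (limma). At an unadjusted p under 0.05 there was 1 with mutSOD1-ACM against control, 1 with wtSOD1-ACM against control, and 2 between the media.

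**Figure D3:**
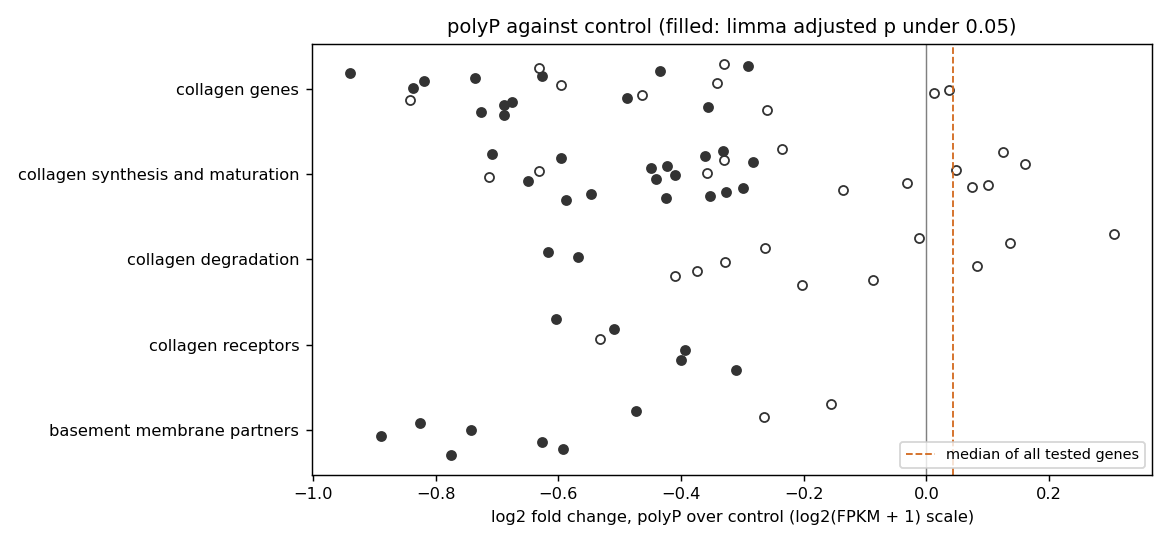
Log2 fold changes of polyP over control (horizontal axis, log2(FPKM + 1) scale) for each tested gene of the collagen family and of the 4 lists of collagen handling genes, with lists down the page and vertical offsets only separating the points. Filled points passed limma's adjusted p threshold of 0.05; all of them are negative, and the dashed line marks the median of all tested genes, 0.04.

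The next comparisons asked whether the conditioned media changed collagen mRNAs. With mutSOD1-ACM against control 0 of 22 collagen genes were called, and 1 was at an unadjusted p under 0.05 (limma). The same comparison called 0.0168% of all tested genes. The median log2 fold change of the 22 genes was -0.17. With wtSOD1-ACM against control 0 were called and 0 were at an unadjusted p under 0.05, with 0.631% of all genes called and a median of -0.04. The summed collagen FPKM was 1963, 1822, 1712, 1695 and 1578 in mutSOD1-ACM cultures and 1698, 1571, 1585 and 1724 in wtSOD1-ACM cultures, within or just below the range of the control cultures.

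Col1a1 had 474, 434, 327, 303 and 266 FPKM in the 5 mutSOD1-ACM cultures and 321, 288, 260 and 286 FPKM in the 4 wtSOD1-ACM cultures. Col1a2 had 342, 317, 155, 229 and 219 FPKM with mutSOD1-ACM and 158, 145, 227 and 245 FPKM with wtSOD1-ACM. Col3a1 had 375, 351, 239, 253 and 225 FPKM with mutSOD1-ACM and 229, 208, 215 and 241 FPKM with wtSOD1-ACM. In all 3 genes mutSOD1-ACM replicates 1 and 2, of class A, were above every wtSOD1-ACM library. Col4a1 had 262, 242, 376, 305 and 297 FPKM with mutSOD1-ACM and 374, 347, 286 and 322 FPKM with wtSOD1-ACM. Col18a1 had 38.9, 36.6, 95.7, 75.2 and 70.1 FPKM with mutSOD1-ACM and 104, 95.5, 78.5 and 77.4 FPKM with wtSOD1-ACM. Here the same 2 libraries were below every wtSOD1-ACM library, as was the class A control library.

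The type V chains were close between the media. Col5a1 had 98.4, 95.1, 90.8, 90.8 and 84.5 FPKM with mutSOD1-ACM and 94.8, 82.7, 92.9 and 98.9 FPKM with wtSOD1-ACM. Col5a2 had 102, 96.6, 125, 125 and 120 FPKM with mutSOD1-ACM and 128, 120, 126 and 133 FPKM with wtSOD1-ACM. Col5a3 had 42.5, 42.6, 52.8, 65.9 and 66.1 FPKM with mutSOD1-ACM and 53.4, 52.4, 71.1 and 69.8 FPKM with wtSOD1-ACM. All of these ranges overlapped between the media. Col11a1 had 34.7, 31.7, 49.7, 40.1 and 42.0 FPKM with mutSOD1-ACM and 50.3, 48.9, 43.5 and 46.3 FPKM with wtSOD1-ACM. Col16a1 had 21.0, 19.9, 26.7, 26.6 and 24.1 FPKM with mutSOD1-ACM and 24.6, 25.4, 25.8 and 26.5 FPKM with wtSOD1-ACM. Col8a1 had 83.8, 77.2, 84.4, 71.5 and 75.8 FPKM with mutSOD1-ACM and 73.8, 75.6, 62.7 and 73.1 FPKM with wtSOD1-ACM. It was the gene at an unadjusted p under 0.05 with mutSOD1-ACM against control (log2 fold change 0.21 ± 0.10, limma adjusted p = 0.966).

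Between mutSOD1-ACM and wtSOD1-ACM cultures 0 of 22 collagen genes were called, with 0.471% of all tested genes called (limma). Col14a1 averaged 1.49 ± 0.174 FPKM over 5 mutSOD1-ACM libraries and 1.99 ± 0.344 FPKM over 4 wtSOD1-ACM libraries and was the 1 gene at an unadjusted p under 0.05 (log2 fold change -0.26 ± 0.11, limma adjusted p = 0.843). Since wtSOD1-ACM has no class A library, medium and class cannot be told apart in the pooled difference for class A. Within class B the median difference of the 22 genes, mutSOD1-ACM minus wtSOD1-ACM, was 0.04 (1 and 2 libraries), and within class C it was -0.03 (2 and 2 libraries). Against control, mutSOD1-ACM gave median differences of 0.05 in class A, -0.16 in class B and -0.12 in class C, and wtSOD1-ACM gave -0.20 in class B and -0.06 in class C. With the class as a term, 0 collagen genes were called in these 3 comparisons, against 0.0421% of all genes with mutSOD1-ACM against control, 2.01% with wtSOD1-ACM against control and 1.00% between the media. At an unadjusted p under 0.05 in that fit there were 3 collagen genes with mutSOD1-ACM against control, 3 with wtSOD1-ACM against control and 1 between the media.

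PolyP cultures were also set against the conditioned media directly, comparisons added after the data were examined. Against mutSOD1-ACM 8 of 22 collagen genes fell and 0 rose, with 4.90% of all tested genes lower, and all 22 estimates were negative. The 8 were Col1a1, Col4a1, Col5a1, Col5a2, Col6a2, Col8a1, Col11a1 and Col16a1. Col5a1 had a log2 fold change of -0.58 ± 0.11 (limma adjusted p = 0.0033) and Col8a1 one of -0.50 ± 0.10 (adjusted p = 0.00331), and in these genes alone, 2 of 22 against 3.92% of all genes, every polyP value lay below every mutSOD1-ACM value. Leaving out 1 library lowered the count to 5 without polyP replicate 4, 5 without polyP replicate 5 and 4 without mutSOD1-ACM replicate 3. With the class as a term 19 genes were lower, against 16.5% of all genes, while classes A and B together gave 0 calls and class C alone 19. Over all genes, classes A and B together gave 56 genes lower and class C alone 1836, against 582 in the fit of all libraries.

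Against wtSOD1-ACM 11 of 22 fell and 0 rose, with 8.32% of all tested genes lower. They were Col4a1, Col5a1, Col5a2, Col5a3, Col8a1, Col11a1, Col11a2, Col14a1, Col16a1, Col18a1 and Col27a1. In 9 of the 22 genes every polyP value lay below every wtSOD1-ACM value, against 7.76% of all tested genes. PolyP replicates 1 and 2 are of class A and no wtSOD1-ACM library is, so class and treatment are mixed in these pooled values. Class A had the lowest median of the classes for 14 of the 22 genes. The median log2 fold change of the 22 genes was -0.52, and -0.39 with the class as a term. Within class B the median difference was -0.19 (1 and 2 libraries), and within class C -0.54 (2 and 2 libraries). Col4a1 showed a log2 fold change of -0.80 ± 0.18 (limma adjusted p = 0.00321), Col5a2 one of -0.63 ± 0.12 (adjusted p = 0.00126) and Col11a1 one of -0.74 ± 0.17 (adjusted p = 0.00288). With the class as a term 17 genes were lower, against 16.2% of all genes, while classes A and B together gave 1 call and class C alone 18. Over all genes these were 394 genes lower in classes A and B together and 2208 in class C alone, against 989 with all libraries. The 3 comparisons of polyP share the polyP libraries, so their calls are not separate evidence.

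The make-up of the collagen family also differed between the classes of libraries. Class A had the highest median of the 3 classes for 4 of the 22 tested genes, Col1a1, Col1a2, Col3a1 and Col6a2, and the lowest for 14. Col1a1 had a median of 434 FPKM in class A, 324 in class B and 276 in class C. Col3a1 had medians of 350, 228 and 233 FPKM in classes A, B and C. Col18a1 went the other way, with 36.6 FPKM in class A, 99.8 in class B and 75.3 in class C, and class A (27.0 to 38.9 FPKM) did not overlap the others (47.7 to 125 FPKM). Col4a1 had medians of 239, 375 and 301 FPKM in classes A, B and C. Col5a1 had similar medians in the 3 classes, 92.3, 92.8 and 91.9 FPKM.

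Because FPKM are per length, chains can be set against each other. The ratio of Col1a1 to Col1a2 was 1.35 to 1.39 in class A, 1.99 to 2.14 in class B and 1.14 to 1.46 in class C. Within class C the 2 polyP libraries, at 1.40 and 1.46, stood above the other 6, at 1.14 to 1.32. The other classes did not show this order. In class A both polyP libraries, at 1.35, lay below the others, at 1.37 to 1.39. In class B the polyP library, at 2.03, lay within the range of the others. The ratio of Col4a1 to Col1a1 was 0.540 to 0.589 in class A, 1.12 to 1.21 in class B and 0.847 to 1.15 in class C. Type I collagen is assembled from both chains, and the ratio of their mRNAs separated class B from the other libraries with no overlap. These ratios are descriptions of the libraries, with no test.

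**Figure D4:**
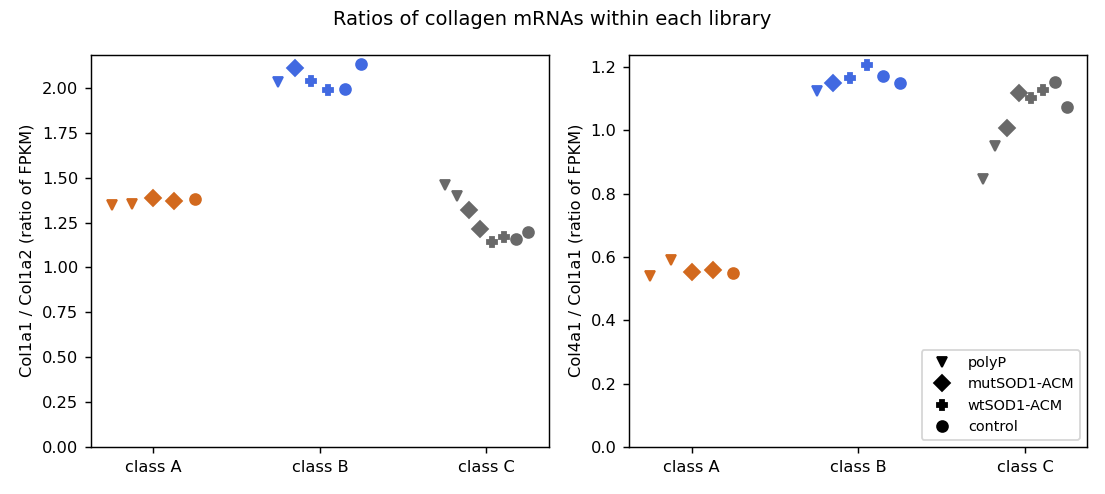
Ratios of FPKM within each library (vertical axes, linear from 0) by class of libraries, Col1a1 over Col1a2 on the left and Col4a1 over Col1a1 on the right, with 1 point per library and the marker shape giving the treatment. Class B stands apart in the left panel (1.99 to 2.14) and class A in the right panel (0.540 to 0.589), for all treatments present in each class.

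Markers of cell types that make collagen were read beside these results. The 11 fibroblast and meningeal markers with a row summed to 71.6 to 252 FPKM in polyP, 55.7 to 276 in mutSOD1-ACM, 59.7 to 86.4 in wtSOD1-ACM and 58.3 to 244 FPKM in control cultures. By class the sum was 228 to 276 FPKM in class A, 86.2 to 94.6 in class B and 55.7 to 74.3 in class C, as with Col1a1 and Col3a1 highest in class A. The matrix proteoglycan Dcn had medians of 25.4, 3.77 and 4.03 FPKM in classes A, B and C, Lum 29.8, 2.76 and 3.86 FPKM, and the growth factor Igf2 141, 21.3 and 17.5 FPKM. These were the 3 of 11 markers whose class A values lay above all other libraries, and Igf2 made up most of the class A sum. Pdgfra, with medians of 16.8, 28.5 and 5.27 FPKM, and Aldh1a2, with 1.35, 3.00 and 1.38 FPKM, were lower in class A than in class B without overlap. Others were near level, such as Fbln1 with 16.6, 16.1 and 16.6 FPKM. In polyP against control 1 of 10 tested markers of this list fell (Fbln1, log2 fold change -0.44, limma adjusted p = 0.000215) and 1 rose (Foxc1, 0.45, adjusted p = 0.00234), and the list's median was 0.21. Counts of markers called are to be read against the 23.0% of all tested genes called higher and 8.77% called lower.

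Of the 6 tested pericyte and smooth muscle markers 2 rose with polyP, Tagln (0.47) and Acta2 (0.53), and 2 fell, Notch3 (-0.63) and Pdgfrb (-0.37; limma adjusted p = 0.00457, 0.00851, 0.000751 and 0.0355). The 9 of this list with a row summed to 1896 to 2436 FPKM in polyP and 1223 to 1924 FPKM in control cultures, mostly from Acta2 and Tagln. Of the 4 tested endothelial markers Flt1 fell (-0.56, limma adjusted p = 0.000306). The 9 endothelial markers with a row summed to 12.3 to 19.3 FPKM in polyP and 17.7 to 25.5 FPKM in control cultures. Most of that sum came from Flt1, at 5.27 to 7.78 FPKM in polyP and 9.03 to 10.7 FPKM in control cultures, and Esam. The 9 microglia and macrophage markers were all lower in estimate and 0 were called, with sums of 50.3 to 164 FPKM in polyP and 48.6 to 541 FPKM in control cultures. Of 8 neuron and 7 astrocyte markers 0 were called, and 0 of these and of the microglia and macrophage markers were at an unadjusted p under 0.05 (limma). Of 3 tested cartilage markers Sox9 rose (0.33), of 5 Schwann and neural crest markers Gap43 rose (0.38) and Prx fell (-0.31), and of 7 oligodendrocyte markers Mobp fell (-0.26; limma adjusted p = 0.0107, 0.017, 0.00381 and 0.0412). The calls of Sox9 and Gap43 were lost with equal summed FPKM, and those of Tagln, Acta2 and Mobp with quantile normalization. Over all alternatives, leaving out each library among them, Mobp lost its call in 12, Pdgfrb in 8, Gap43 in 4 and Acta2 in 2. Sox9, Tagln, Foxc1 and Prx each lost it in 1. When 1 library was left out, Pdgfrb lost its call in 5 of 19 fits and Mobp in 7. No list had a marker listed at 0 in all libraries of a group. The part of these markers in the collagen results was not tested.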

How the data were processed

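The authors deposited 1 table of FPKM with 2 decimals for 15597 genes and 19 libraries, per the file headers. Per the labels' protocols the libraries were poly(A)-enriched, and the series text calls them strand-specific. Per the submitters' processing notes the reads were aligned with HISAT to rn6; no source used here states the aligner's version, the annotation or the tool that made the FPKM. All 19 value columns were matched to samples by name. Total fragment numbers are unknown. Low values of 106 rarely detected genes lay within 0.1 fragment of whole multiples in 93.7% of 554 values and gave a relative depth of 0.762 to 1.35; the unit was set from these same values, so no count test was run.

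Tests used limma 3.58.1 with statmod 1.5.0 in R 4.3.3 on log2(FPKM + 1), for the 11887 genes at 1 FPKM or more in at least 4 libraries. One fit held all 4 groups, with the group as the only term and empirical Bayes moderation (trend, robust). P-values are two-sided with Benjamini-Hochberg adjustment over all genes tested. The script was tested on simulated data. The collagen genes and the gene and marker lists were chosen with earlier results of these data known. Per library values are given for the 8 collagen genes of highest median FPKM and for at most the 6 called ones of smallest adjusted p per comparison, and at most 3 called members of each list of collagen handling genes are named. Genes outside this rule, markers among them, were named after their values were seen. Alternatives were another pseudocount, no filter, 3 other scalings, a set or class of libraries as a term or alone, a replicate block, the compared groups alone, and leaving out each library. The sets and classes come from average-linkage clustering on 1 minus Pearson's r without the collagen genes. Classes A and B together form set 1, and class C is set 2.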

Additional observations from a re-analysis of the deposited data

Results flagged for a closer look

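A check of single libraries covered 88 groups, the 22 tested collagen genes in each of the 4 treatments, and set the gap between an extreme library and its nearest neighbour against the range of its group. Chance flags about 1 in 20 groups, and 4 were flagged. Col11a1 in polyP replicate 3 stood at 39.37 FPKM, above the other 4 polyP libraries at 22.87 to 27.33 FPKM. Col23a1 in the same library stood at 15.62 FPKM, above the other 4 at 8.56 to 9.98 FPKM. Col3a1 in control replicate 1 stood at 350.05 FPKM, above the other 4 control libraries at 226.27 to 254.45 FPKM. Col6a2 in control replicate 3 stood at 30.78 FPKM, below the other 4 control libraries at 38.15 to 40.39 FPKM. PolyP replicate 3 is the polyP library of class B, and control replicate 1 is the control library of class A.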

How the results depend on the processing

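For polyP against control the 13 collagen genes called became 2 (Col5a1 and Col5a3) in set 1 alone, which leaves 3 libraries a group. It lay between 9 and 19 under the other 11 alternatives and between 10 and 14 when 1 library was left out. For polyP against mutSOD1-ACM the count of 8 became 5 with no filter on low values, 0 in set 1 alone, 19 in set 2 alone and 19 with the class as a term, and ran from 4 to 9 when 1 library was left out. For polyP against wtSOD1-ACM the count of 11 became 1 in set 1 alone, 18 in set 2 alone and 17 with the class as a term, and ran from 8 to 13 when 1 library was left out. The cause was not tested. In the other 3 comparisons the count was 0 under every alternative run. Of the 58 fold changes followed through the alternatives, those the text names among them, the 50 called ones kept their sign in every alternative run. The uncalled ones of Col23a1 and Col26a1 in polyP against control did not. Col23a1 was -0.0908 with equal summed FPKM, -0.0442 with median-of-ratios scaling, -0.0175 in set 2 alone and from -0.123 to 0.0787 when 1 library was left out. Col26a1 was -0.0542 with equal summed FPKM, -0.0140 with median-of-ratios scaling and from -0.0168 to 0.0987 when 1 library was left out. Of 1798 pairs of a fold change and an alternative, 1633 kept the direction and the side of the threshold, 135 kept the direction and lost the call, 19 kept it and gained the call and 11 changed sign.

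Replicate numbers matched the libraries only in part. For polyP against control the deviations of same-numbered libraries correlated at over 0.1 in 4 of 5 pairs (r from 0.0681 to 0.688). In that comparison 3 of 5 polyP libraries correlated best with their own number. For wtSOD1-ACM against control r ran from -0.687 to 0.762, and 1 of 4 wtSOD1-ACM libraries correlated best with its own number. A fit with the replicate number as a block called 16 collagen genes in polyP against control, 11 against mutSOD1-ACM and 14 against wtSOD1-ACM. Calls over all genes grew as well in that fit. It called 2138, 1205 and 2288 genes lower in these comparisons, against 1043, 582 and 989 without the block.

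Over all genes polyP against control called 3779 in the fit described, 6194 with the set as a term, 2470 in set 1 alone, 5730 with the block and 6631 with the class. For wtSOD1-ACM against control the 75 calls became 143 with the set, 119 with the block, 33 with the compared groups alone and 239 with the class, and for mutSOD1-ACM against wtSOD1-ACM the 56 calls became 99, 96 and 119 with set, block and class and 35 without class A. For polyP against mutSOD1-ACM the 2342 calls became 1533 and 1479 with equal sums and median-of-ratios scaling, 4287 with the set, 116 and 4529 in sets 1 and 2, 3767 with the block, 5413 with the class and 913 without class A. For polyP against wtSOD1-ACM the 3488 calls became 5763, 1321, 5786, 5669, 5733 and 2277 under the set term, set 1, set 2, block, class and no class A. For mutSOD1-ACM against control the 2 calls ranged from 0 to 5. Scaling every library to an equal sum shifted the all-gene median by -0.10 in polyP against control and left 14 collagen genes lower, with 14.0% of all genes lower. Absolute depth is unknown, so genes near 1 FPKM carry counting error of unknown size.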
